A study of Mus musculus with 8 samples.

Results

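The colony stimulating factors (CSFs) and their receptors were examined as 8 genes, the ligand genes Csf1, Il34, Csf2 and Csf3 and the receptor genes Csf1r, Csf2ra, Csf2rb and Csf3r. Members were the array probes whose RefSeq accession maps to one of these symbols. These are 8 of the 20145 genes that the array names, and they were read by 13 of its 55681 non-control probes, 3 each for Csf1 and Csf1r, 2 for Csf2rb and a single probe for each other gene, and all 13 passed the filter on dim probes. The arrays measured 8 samples of tumours that 4T1, a mammary carcinoma cell line of the mouse, had formed in the no. 3 fat pad. The hosts were BALB/C females, 6-8 weeks old. The 4T1 cells had been infected in culture for 24 h at a multiplicity of 50 with Adenoviral-PRH (PRH group, n = 4) or with Empty adenovirus (control group, n = 4), and day 22 was the day of harvest. Hhex encodes PRH, a homeodomain transcription factor. Both groups carry virus-infected cells of the same line, the virus was given before injection alone, and the promoter that drives PRH is not given in the labels. The labels name both whole tumours and endothelial isolates as the source of the RNA. Nothing in the labels says how the samples of a group were kept apart beyond a mouse number (1, 2, 3 or 5), so p-values measure the spread between these samples.

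CSFs are secreted cytokines that drive the production, survival and activation of myeloid cells. Csf1 (M-CSF) and Il34 are distinct ligands of the receptor tyrosine kinase Csf1r, on which macrophages depend. Csf2 (GM-CSF) signals through the specific chain Csf2ra paired with the common beta chain Csf2rb, which IL-3 and IL-5 receptors also use, and Csf3 (G-CSF) signals through Csf3r, the receptor of the neutrophil lineage. The 4T1 line is known for a strong expansion of neutrophils in the mice that carry it, for which tumour-derived G-CSF is a known driver.

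Values are log2 of the scanner's processed signal relative to the array's own 75th percentile, called the scaled log2 signal here. The 75th percentile was 722.4 ± 41.2 on PRH arrays and 1094 ± 131 on control arrays (mean ± SD, n = 4 each, exact two-sided permutation p = 0.0286, the smallest p that 70 arrangements allow). Where the samples are kept in their 4 pairs of mouse number, the 16 exact sign changes allow no p under 0.125, which the 75th percentile reached, so no exact permutation result given here passes with pairs kept. This scaling therefore raises PRH values relative to control values, compared with the unscaled signal. The median difference over all tested probes was 0.22 with it, 0.01 after quantile normalization and -0.25 after median centring. All arrays were on a single slide, and the second field of the array identifier in the file headers was 1 for every PRH array and 2 for every control array, so an effect of what it marks cannot be told apart from one of the group. Hhex had -1.67 ± 0.14 in PRH-labelled and -0.58 ± 0.20 in control samples (SD, n = 4 each), a fall that goes against its label (difference -1.09, SE 0.148, limma adjusted p = 0.00674), and whether this probe reads the PRH of the vector was not tested, so samples are called PRH-labelled below and each direction is that of the label. In a tumour sample, fewer cells of a type and less RNA per cell cannot be told apart.

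Of the 13 probes, 3 passed the test between PRH-labelled and control tumours (limma, Benjamini-Hochberg adjusted p under 0.05 over 39463 probes). A Csf1 probe and a Csf1r probe were lower, and the Csf3r probe was higher. This is 23.1% of the member probes, beside 26.2% of all probes tested. For lower calls the members' 2 of 13 (15.4%) stand beside 10.1% of all probes, and for higher calls their 1 of 13 (7.69%) beside 16.1%. In 4 of 13 probes (30.8%) the groups did not overlap, beside 31.5% of all probes. The median difference over the 13 probes was -0.25. The split of the calls depends on the scaling: after median centring 0 members were higher and 6 lower, and without scaling 0 were higher and 7 lower, while over all probes the higher calls made up 61.5% of calls as scaled here, 24.0% after median centring and 14.6% without scaling. The share of members called was thus near that of the whole array, and what follows concerns single genes.

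**Figure D1:**
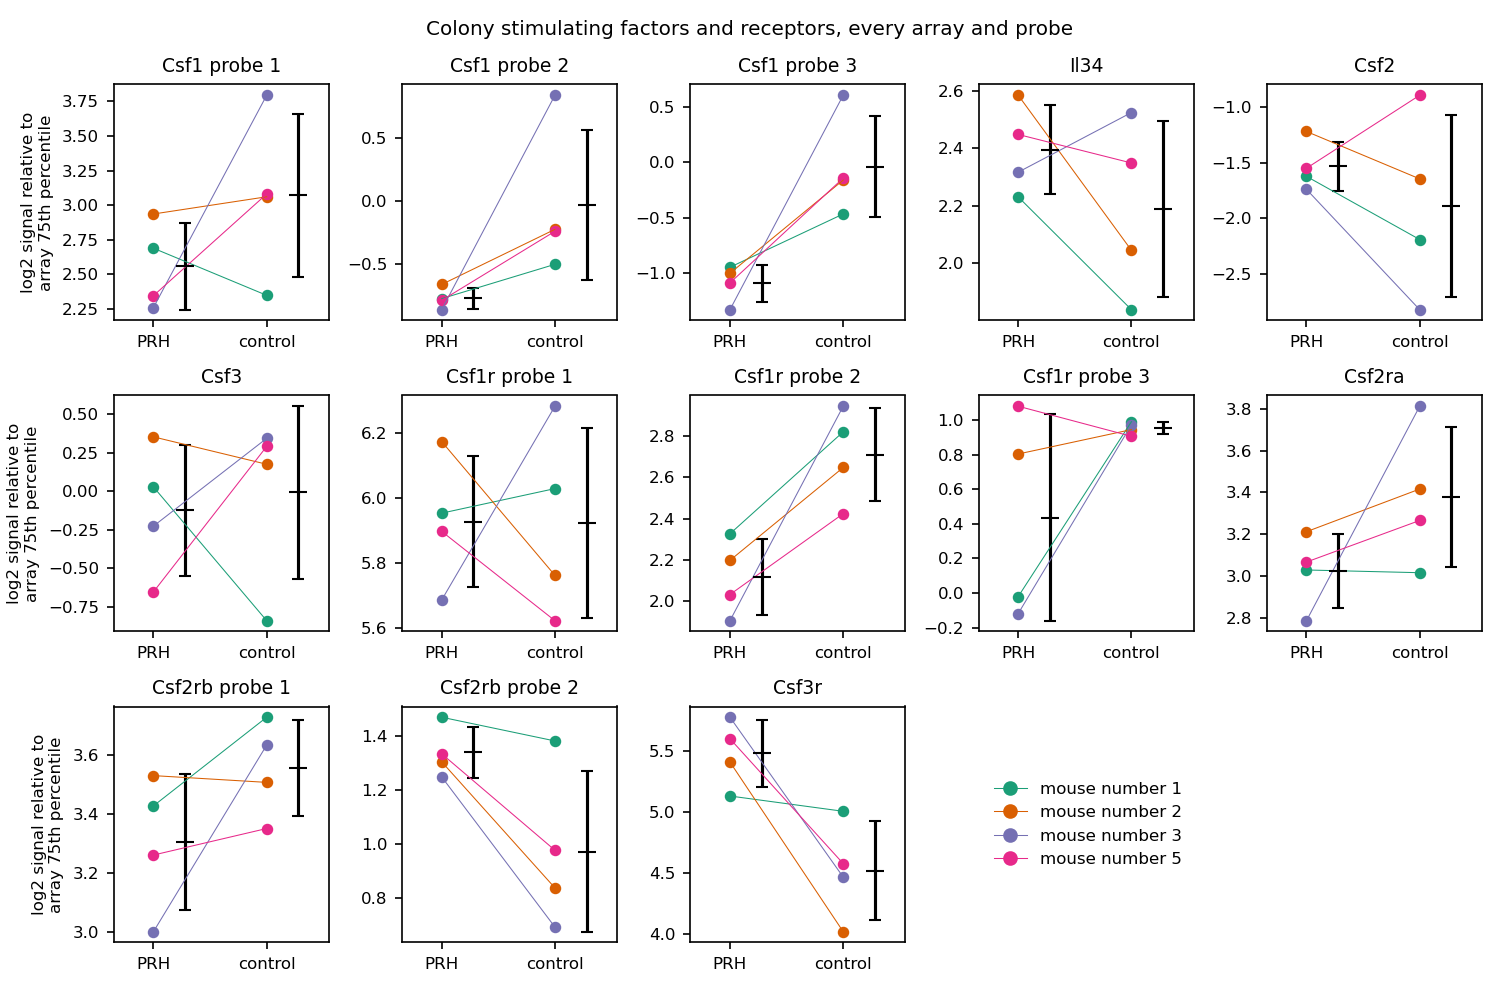
Scaled log2 signal (vertical axis, log2 units, 0 being the 75th percentile of that array, with its own range in each panel) of the 13 probes in 4 PRH-labelled samples (left) and 4 control samples (right). Points are samples coloured by mouse number and joined within a number, and black bars give the mean ± SD. Csf1 probe 3, Csf1 probe 2, Csf1r probe 2 and Csf3r show no overlap between the groups, and the Csf1 probes read highest in control 3.

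Csf1, the ligand that macrophages depend on, was read by 3 probes, numbered here from the brightest, and all 3 stood lower in PRH-labelled tumours. Probe 3 (A_55_P2017914) had -0.95, -1.00, -1.33 and -1.09 in PRH-labelled samples 1, 2, 3 and 5, against -0.47, -0.16, 0.60 and -0.14 in control samples 1, 2, 3 and 5. The groups were apart and control 3 read highest. The difference was -1.05 (SE 0.237, 95% confidence interval -1.60 to -0.50, limma adjusted p = 0.0170), and the probe was lower in 4 of 4 mouse numbers.

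Probe 2 (A_55_P2169669), which reads the same RefSeq accession NM_001113530 as probe 3, had -0.77, -0.66, -0.86 and -0.78 in PRH-labelled samples, against -0.50, -0.22, 0.84 and -0.24 in control samples. The groups were again apart, but the difference of -0.74 (SE 0.282) did not pass (limma adjusted p = 0.0935). It passed with normexp (-0.82, adjusted p = 0.0347), in the authors' values (-0.86, 0.0377), after median centring (-1.20, 0.0268) and without scaling (-1.33, 0.0126), and stood at -0.45 without control 3 (0.0573). Probe 1 (A_51_P195506), made for the accession NM_007778, had 2.69, 2.94, 2.26 and 2.35 in PRH-labelled samples, against 2.35, 3.06, 3.79 and 3.08 in control samples. Here the groups overlapped, because control 1 lay among the PRH-labelled samples. Its difference was -0.51 (SE 0.311, 95% confidence interval -1.24 to 0.21, limma adjusted p = 0.259), and it was -0.27 without control 3 and -1.11 without scaling (adjusted p = 0.0350).

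Probe 1 is printed in 10 spots on each array, whose spread covers spot error but not that of labelling or of the array. The SD between these spots was 0.104 to 0.189 on the log2 scale on an array, while the SD between samples was 0.31 in PRH-labelled and 0.59 in control tumours. The call of probe 3 held in every fit without 1 array (adjusted p up to 0.0455) and under every other scaling run except centring on spike-in probes (difference -1.18, adjusted p = 0.131), where 3 of 39463 probes passed in all.

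Csf1 and Csf3r are genes called in opposite directions. Csf1r also had a probe called lower, but its promoter is not reported here. The promoters of Csf1 and Csf3r are shown side by side. Each runs 5′ to 3′ on the gene's strand, from 250 bases before to 50 after a RefSeq transcript start in GRCm38.p6, at chr3:107760420-107760719 on the minus strand for Csf1 and chr4:126024409-126024708 on the plus strand for Csf3r, with capitals for motif matches.
Csf1: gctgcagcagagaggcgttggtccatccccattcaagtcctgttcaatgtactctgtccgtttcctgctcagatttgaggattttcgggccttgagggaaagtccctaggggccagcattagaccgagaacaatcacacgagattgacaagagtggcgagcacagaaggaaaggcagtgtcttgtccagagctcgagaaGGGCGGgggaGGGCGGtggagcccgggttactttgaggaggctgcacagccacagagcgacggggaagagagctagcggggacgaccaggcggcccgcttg
Csf3r: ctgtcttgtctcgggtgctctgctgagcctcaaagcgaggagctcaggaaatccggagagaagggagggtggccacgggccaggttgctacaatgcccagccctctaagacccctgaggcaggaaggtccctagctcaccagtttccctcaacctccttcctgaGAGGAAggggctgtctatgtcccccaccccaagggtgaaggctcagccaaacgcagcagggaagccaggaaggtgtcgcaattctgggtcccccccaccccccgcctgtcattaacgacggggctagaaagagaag
Both strands were searched for the letters GAGGAA, a core of sites of the myeloid transcription factor PU.1. The search also took in the GC box, written GGGCGG, and the C/EBP motif, written TTGCNNAA. Further motifs were the TATA box with the letters TATAAA and the AP-1 site with the letters TGANTCA. No matches overlapped in these windows. Csf1 held GGGCGG at 2 places, positions -51 and -41 from the start, and no match to the others, whereas Csf3r held GAGGAA once, at position -86. GGGCGG is found in 35.66% and GAGGAA in 28.28% of 32851 promoters of this length, TTGCNNAA in 10.8%, TATAAA in 13.62% and TGANTCA in 7.808%. Of the other members whose motif matches are reported here, Csf2 held TTGCNNAA and GGGCGG, and Csf2ra held GAGGAA at 2 places and GGGCGG.

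Il34, the other ligand of Csf1r, had 2.23, 2.58, 2.32 and 2.45 in PRH-labelled samples, against 1.84, 2.04, 2.52 and 2.35 in control samples. The groups overlapped, with controls 3 and 5 inside the range of the PRH-labelled samples and controls 1 and 2 below it. The difference of 0.21 (SE 0.182, 95% confidence interval -0.22 to 0.63, limma adjusted p = 0.426) did not pass, and its sign turned after median centring (-0.26) and without scaling (-0.39).

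Csf2, the ligand that acts on macrophages, granulocytes and dendritic cells, had -1.62, -1.22, -1.74 and -1.55 in PRH-labelled samples, against -2.19, -1.64, -2.82 and -0.89 in control samples. Control tumours spread over a wider range than PRH-labelled tumours, with the highest (control 5) and the lowest (control 3) of all 8 values. The SD was 0.22 in PRH-labelled and 0.82 in control tumours, while the SD between the spots of its 10-spot probe on an array was 0.0871 to 0.186. The difference was 0.35 (SE 0.387, 95% confidence interval -0.54 to 1.25, limma adjusted p = 0.517), lay between 0.04 without control 3 and 0.69 without control 5, and turned to -0.11 after median centring and -0.24 without scaling.

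Csf3, the ligand that drives neutrophil production, had 0.03, 0.35, -0.23 and -0.65 in PRH-labelled samples, against -0.84, 0.18, 0.34 and 0.29 in control samples. The groups overlapped over nearly their whole range, and control 1 stood below the other 7 samples. The difference was -0.12 (SE 0.326, 95% confidence interval -0.87 to 0.64, limma adjusted p = 0.804), turning to 0.06 without PRH-labelled sample 5. Of the 4 ligand genes, Csf1 alone had a probe past the threshold.

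**Figure D2:**
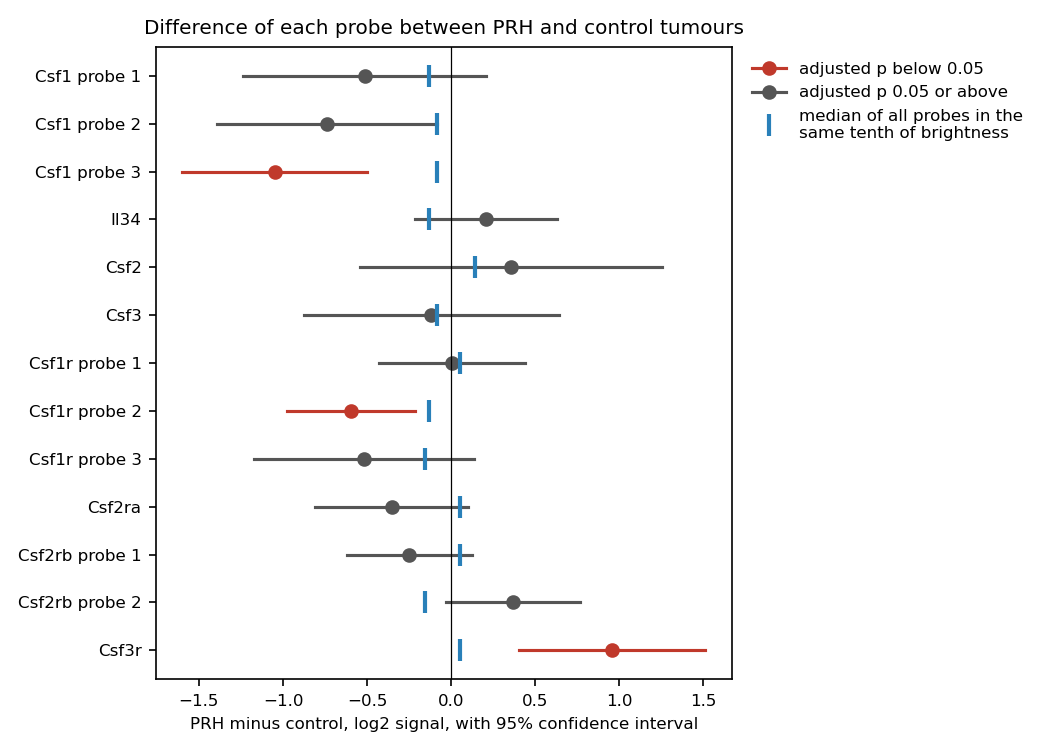
Difference between PRH-labelled and control tumours (log2 signal, horizontal axis, above 0 meaning higher in PRH-labelled tumours) with its 95% confidence interval for each of 13 probes, 4 samples a group. Blue ticks mark the median of all tested probes of like brightness, between -0.16 and 0.14, and the intervals of Csf1 probe 3, Csf1r probe 2 and Csf3r (red) lie clear of 0, as does that of Csf1 probe 2, which did not pass after adjustment.

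Csf1r, the receptor tyrosine kinase of macrophages, gave unequal readings over its 3 probes, which share the accession NM_001037859. Probe 1 (A_55_P2025078) had 5.95, 6.17, 5.69 and 5.90 in PRH-labelled samples, against 6.03, 5.76, 6.28 and 5.62 in control samples. The groups overlapped in full and the difference was 0.00 (SE 0.187, 95% confidence interval -0.43 to 0.44, limma adjusted p = 0.990). Probe 2 (A_52_P602091) had 2.33, 2.20, 1.90 and 2.03 in PRH-labelled samples, against 2.82, 2.65, 2.95 and 2.42 in control samples. Every PRH-labelled sample lay below every control sample, and the probe fell by 0.60 (SE 0.164, limma adjusted p = 0.0332).

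Probe 3 (A_55_P2025073) had -0.02, 0.80, -0.12 and 1.08 in PRH-labelled samples, against 0.99, 0.95, 0.97 and 0.91 in control samples. Control tumours were close together (SD 0.04), while PRH-labelled tumours split into a low pair (1 and 3) and a high pair (2 and 5) with an SD of 0.60. The difference of -0.52 (SE 0.283) did not pass (limma adjusted p = 0.214), although it did after median centring (-0.98, adjusted p = 0.0393) and without scaling (-1.11, 0.0289). The call of probe 2 was lost after quantile normalization (-0.50, adjusted p = 0.0689), with normexp (-0.39, 0.164), in the authors' values (-0.39, 0.173), with spike-in centring (-0.72, 0.264) and, of the 8 fits that each left out 1 array, in 5, those without PRH-labelled sample 2, 3 or 5 or control 2 or 3 (adjusted p 0.0671 to 0.0861). Which probe stands for Csf1r in these tumours is not settled by the files.

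Csf2ra, the chain that binds GM-CSF, had 3.03, 3.21, 2.78 and 3.07 in PRH-labelled samples, against 3.01, 3.42, 3.81 and 3.26 in control samples. The groups overlapped through control 1 alone, and control 3 was highest. The difference of -0.35 (SE 0.195, 95% confidence interval -0.81 to 0.10, limma adjusted p = 0.218) did not pass, although it did with normexp (-0.45, adjusted p = 0.0398), after median centring (-0.82, 0.0430) and without scaling (-0.95, 0.0189).

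Csf2rb, the shared signalling chain, had probes of opposite sign. Probe 1 (A_52_P52618) had 3.43, 3.53, 3.00 and 3.26 in PRH-labelled samples, against 3.73, 3.51, 3.63 and 3.35 in control samples, a difference of -0.25 (SE 0.160, limma adjusted p = 0.285), which passed after median centring (-0.71, 0.0249) and without scaling (-0.84, 0.0133). Probe 2 (A_66_P123635) had 1.47, 1.31, 1.25 and 1.33 in PRH-labelled samples, against 1.38, 0.84, 0.69 and 0.98 in control samples, a difference of 0.37 (SE 0.171, limma adjusted p = 0.154). Probe 2 read higher in 4 of 4 mouse numbers and its groups overlapped through control 1, without which it passed (0.51, adjusted p = 0.0198). Mice carry a near-identical copy of this gene, Csf2rb2, which encodes a beta chain specific for IL-3. Csf2rb2 fell by 0.68 on the log2 scale (SE 0.128, limma adjusted p = 0.00984), with 2.35, 2.47, 2.20 and 2.26 in PRH-labelled samples, against 3.12, 3.07, 2.82 and 3.01 in control samples. Its other probe stood at -0.80. How far probes of either gene read the other's RNA was not tested, so the values of Csf2rb and Csf2rb2 are uncertain.

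Csf3r, the receptor of G-CSF, was the member that rose. It had 5.13, 5.41, 5.77 and 5.60 in PRH-labelled samples, against 5.00, 4.02, 4.47 and 4.58 in control samples. Every PRH-labelled sample lay above every control sample, though sample 1 exceeded its same-numbered control by 0.13 while the pairs 2, 3 and 5 differed by 1.39, 1.31 and 1.02. The difference was 0.96 (SE 0.239, 95% confidence interval 0.41 to 1.51, limma adjusted p = 0.0233), or 1.95-fold. Before scaling, the processed signal was 23763, 32305, 38036 and 36481 in PRH-labelled samples, against 32181, 20800, 23911 and 24051 in control samples, and these overlapped. The call held with quantile normalization (0.95), normexp (1.06) and the authors' own values (1.07), but not after median centring (0.49, adjusted p = 0.0855), without scaling (0.37, 0.224) or with spike-in centring (0.83, 0.224). Of the 8 fits that each left out 1 array it was lost in 6, those without PRH-labelled sample 2, 3 or 5 or control 2, 3 or 5 (adjusted p 0.0515 to 0.0625).

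Csf3r is itself a neutrophil marker, and 15 other genes of a neutrophil list were tested. Of these, 0 were higher and 1 was lower with limma (0 and 2 at an unadjusted p under 0.05), beside 10.7% higher and 13.1% lower of all named genes. The log2 of their summed scaled signal, in which bright probes weigh most, was 7.52 to 8.20 in PRH-labelled samples, against 5.43 to 8.06 in control samples, with control 3 far below the rest (exact permutation p = 0.543). S100a9, a calcium-binding protein abundant in neutrophils, differed by 0.50 (SE 0.941, limma adjusted p = 0.709). Retnlg, a neutrophil-secreted protein, fell by 1.15 (SE 0.332, limma adjusted p = 0.0390), but its groups overlapped and the call held in 2 of 8 fits without 1 array (adjusted p up to 0.0970) and under 3 of the 6 other scalings. Elane, neutrophil elastase, stood at 0.57 (SE 0.535, limma adjusted p = 0.450). No probe was matched to Ly6g.

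On the same log2 scale the macrophage genes other than Csf1r summed to 7.74 to 8.26 in PRH-labelled samples, against 7.90 to 8.54 in control samples (15 genes, exact permutation p = 0.714), with 2 genes lower and 0 higher with limma (3 and 1 at an unadjusted p under 0.05). The 2 were Lyz2, lysozyme (-0.86, SE 0.193, adjusted p = 0.0167), and Mrc1, the mannose receptor (-1.16, SE 0.302, adjusted p = 0.0268), whose call held in 5 of 8 fits without 1 array. Adgre1, a macrophage surface receptor, differed by 0.02, with another probe at -0.71, and the complement genes C1qa, C1qb and C1qc by 0.12, -0.06 and -0.21. Of 9 dendritic genes 2 were higher and 2 lower, beside 10.7% higher and 13.1% lower of all named genes. The 2 higher, Zbtb46 (1.17) and Siglech (0.66), each had another probe of opposite sign (-0.86 and -1.19). The Siglech call held under none of the 6 other scalings and in 1 of 8 fits without 1 array (adjusted p up to 0.114). The Zbtb46 call held under 4 of the 6 and in all 8 fits. The dendritic sums, in which the Siglech probe weighs most, were 5.94 to 6.44 in PRH-labelled and 5.40 to 5.94 in control samples (exact permutation p = 0.0571). Mammary epithelial genes summed to 8.72 to 9.13 in PRH-labelled and 8.28 to 8.70 in control samples, without overlap (exact permutation p = 0.0286, and 0.125 with pairs kept). The scaling used here raises the sums of PRH-labelled samples relative to those of control samples, compared with the unscaled signal. Without scaling, and after median centring, the epithelial sums of the groups overlapped. Whether they stay apart after quantile normalization was not tested. Of 10 epithelial genes 2 were higher, Krt14 and Krt18, keratins of basal and luminal cells, of which Krt18 passed under none of the 6 other scalings, and all 10 were above background on all 8 arrays. Krt8, the keratin that pairs with Krt18, stood at -0.44 without overlap of the groups (SE 0.156, adjusted p = 0.0763), the 1 lower beside 2 higher at an unadjusted p under 0.05. Endothelial sums were 4.76 to 5.08 in PRH-labelled and 3.55 to 5.01 in control samples, with Kdr the only gene of 10 past the threshold (its other probe stood at -0.48). The Kdr call held in 2 of 8 fits without 1 array (adjusted p up to 0.0673) and under 3 of the 6 other scalings. With limma 1 of 8 fibroblast genes was lower, and 0 of 7 T cell genes and 0 of 4 osteoclast genes passed (1 and 0 at an unadjusted p under 0.05). The part of these cell types in the members' values was not tested.

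Ratios of member probes within an array do not depend on a per-array scaling, and 18 were compared by exact permutation over the 70 arrangements, a set chosen after the values above were seen. The smallest p of 0.0286 was reached by 6 ratios, whose Benjamini-Hochberg value over the 18 was 0.0857, so none passed. No ratio can have a smaller p, and many more of the 18 would have to reach it for any to pass. That none passed therefore decides nothing about these ratios. Csf3r over Csf1r probe 1 was -0.82 to 0.09 in PRH-labelled samples, against -1.82 to -1.03 in control samples, a difference of 0.96 in the log2 ratio. Csf3r over Csf2ra differed by 1.31 and Csf3r over Csf2rb probe 1 by 1.21, also without overlap. These log2 ratios compare arrays with each other and say nothing of how much of either RNA was present.

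The remaining 3 of the 6 were between probes of a single gene. Csf1r probe 1 over probe 2 was higher in PRH-labelled tumours by 0.60, Csf1 probe 1 over probe 3 was higher by 0.54, and Csf2rb probe 1 over probe 2 was lower, at -0.62. None of these passed after adjustment either, which decides nothing for the reason given above. Ratios of a ligand to its receptor overlapped between the groups in all 5 cases, from -1.08 for Csf3 over Csf3r (exact permutation p = 0.0857, adjusted p = 0.193) to 0.71 for Csf2 over Csf2ra (exact permutation p = 0.171, adjusted p = 0.237).

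**Figure D3:**
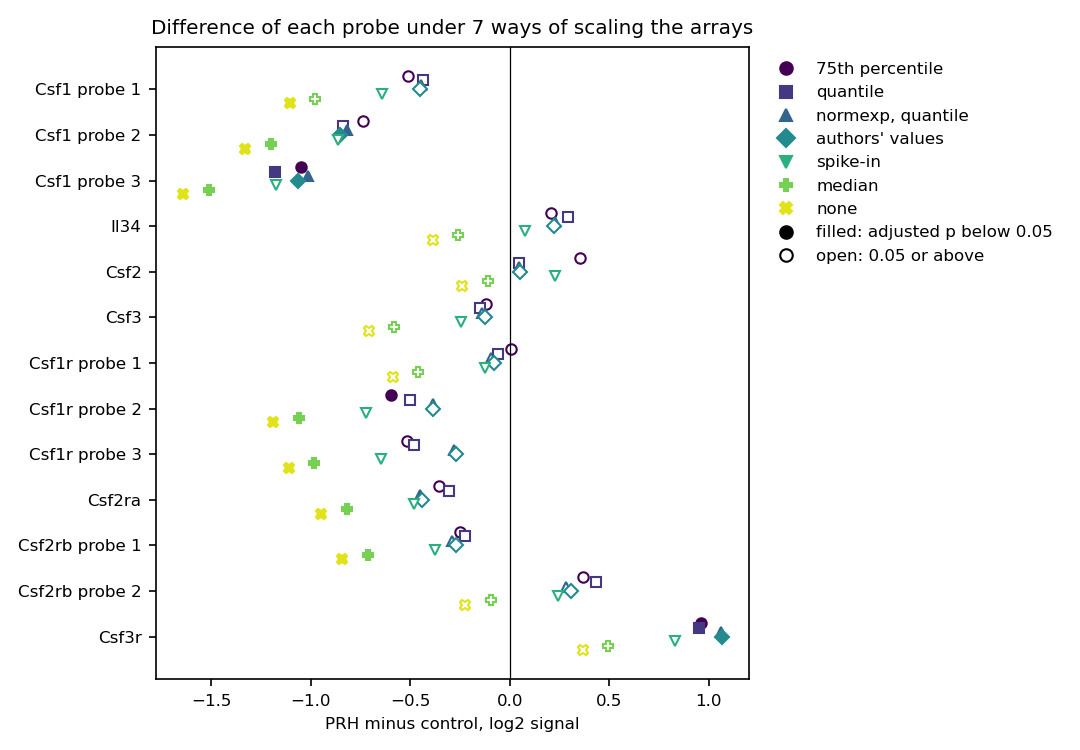
Difference between PRH-labelled and control tumours (log2 signal, horizontal axis) of the 13 probes under 7 ways of scaling the arrays, filled where the adjusted p was below 0.05. Csf3r lies above 0 and all Csf1 probes lie below 0 under each of them, while Il34, Csf2 and Csf2rb probe 2 change sign after median centring and without scaling.

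The genes that act with the CSF receptors were examined in lists of signalling and myeloid factors, related receptors and cytokines, and inducers of CSF ligands, with each gene read by its brightest tested probe. Of 50 tested genes 7 were higher (14.0%) and 12 lower (24.0%), beside 10.7% and 13.1% of 16377 named genes. These became 5 and 14 with quantile normalization, 1 and 22 after median centring and 0 and 28 without scaling. In the signalling list 3 of 28 were higher and 8 lower, with a median difference of -0.21, beside -0.02 over all named genes. Adjusted p-values in the next paragraphs are from limma over all probes.

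Among receptor-proximal kinases and adaptors, Jak2, the kinase on which Csf2rb signalling depends, was higher by 0.94 (SE 0.168, adjusted p = 0.00877), with 4.74 to 5.05 in PRH-labelled and 3.66 to 4.22 in control samples, and passed under 3 of the 6 other scalings. Jak1, a kinase of the same family, fell by 0.61 on the log2 scale (adjusted p = 0.0105). Lyn, a Src-family kinase gene, fell by 0.96 (adjusted p = 0.0145). Grb2, an adaptor that couples receptors to Ras, fell by 1.13 and Cbl, a ubiquitin ligase that takes Csf1r to degradation, by 1.64 (adjusted p = 0.00674 each). Inpp5d, the phosphatase SHIP1 that limits myeloid signalling, fell by 1.10 (adjusted p = 0.00815). Of the transcription factors, Stat3, which acts below Csf3r, was higher by 0.58 (adjusted p = 0.0303, another probe at -0.40), but it passed under none of the 6 other scalings and stood at -0.01 without scaling. Runx1 was higher by 0.67 (adjusted p = 0.0139, another probe at -0.51) and passed under 3 of the 6 other scalings, with a lowest difference of 0.07. Cebpa, needed for granulocyte development, fell by 0.84 (adjusted p = 0.00877) and Gfi1 by 1.20 (adjusted p = 0.0241).

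Spi1, which encodes PU.1, did not pass (-0.42, SE 0.168, adjusted p = 0.106), nor did Stat5a (-0.45, adjusted p = 0.0851), Stat5b (-0.16, adjusted p = 0.394) and Tyrobp, the adaptor DAP12 (0.01, adjusted p = 0.970). Of Csf2rb's relatives and other haematopoietic receptors, 3 of 11 were higher and 2 lower, beside 10.7% and 13.1% of all named genes. The 2 lower were Csf2rb2, given above, and Flt3, a receptor of dendritic cell precursors (-1.41, adjusted p = 0.0470), whose other probe stood at 1.31. Sdc1, a proteoglycan that also binds IL-34 (0.99, adjusted p = 0.0144), and Kitl, stem cell factor (0.83, adjusted p = 0.0277), were among the higher ones. Sdc1 passed under 3 of the 6 other scalings, and Kitl under none of them. Ptprz1, another receptor of IL-34, was dim, above background on 3 of 4 arrays in each group (-0.53, SE 0.944). Il3 and Il5 did not pass the filter.

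Of 11 inducers of CSF ligands 1 was higher and 2 were lower, beside 10.7% and 13.1% of all named genes. Tnf was higher by 0.70 (adjusted p = 0.0148) but passed under none of the 6 other scalings. Il17ra, the receptor of a cytokine that induces Csf3, fell by 1.34 (adjusted p = 0.00674), and Nfkb1 by 0.51 (adjusted p = 0.0386). Il1b, which induces Csf3 and Csf2, differed by -0.30 (SE 0.262, adjusted p = 0.420), and Il1a by 0.56 (SE 0.583, adjusted p = 0.498). Of the 19 calls in the 3 lists, 15 held in each of the quantile-normalized, normexp and authors' values, 4 higher and 11 lower, and 13 held in all 8 fits without 1 array. Those lost in at least 4 of these 8 fits included Stat3, Gfi1, Kitl, Flt3 and Nfkb1. Blocking on mouse number kept 17 of the 19 calls, and Nfkb1 (adjusted p = 0.0616) was among those lost.

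**Figure D4:**
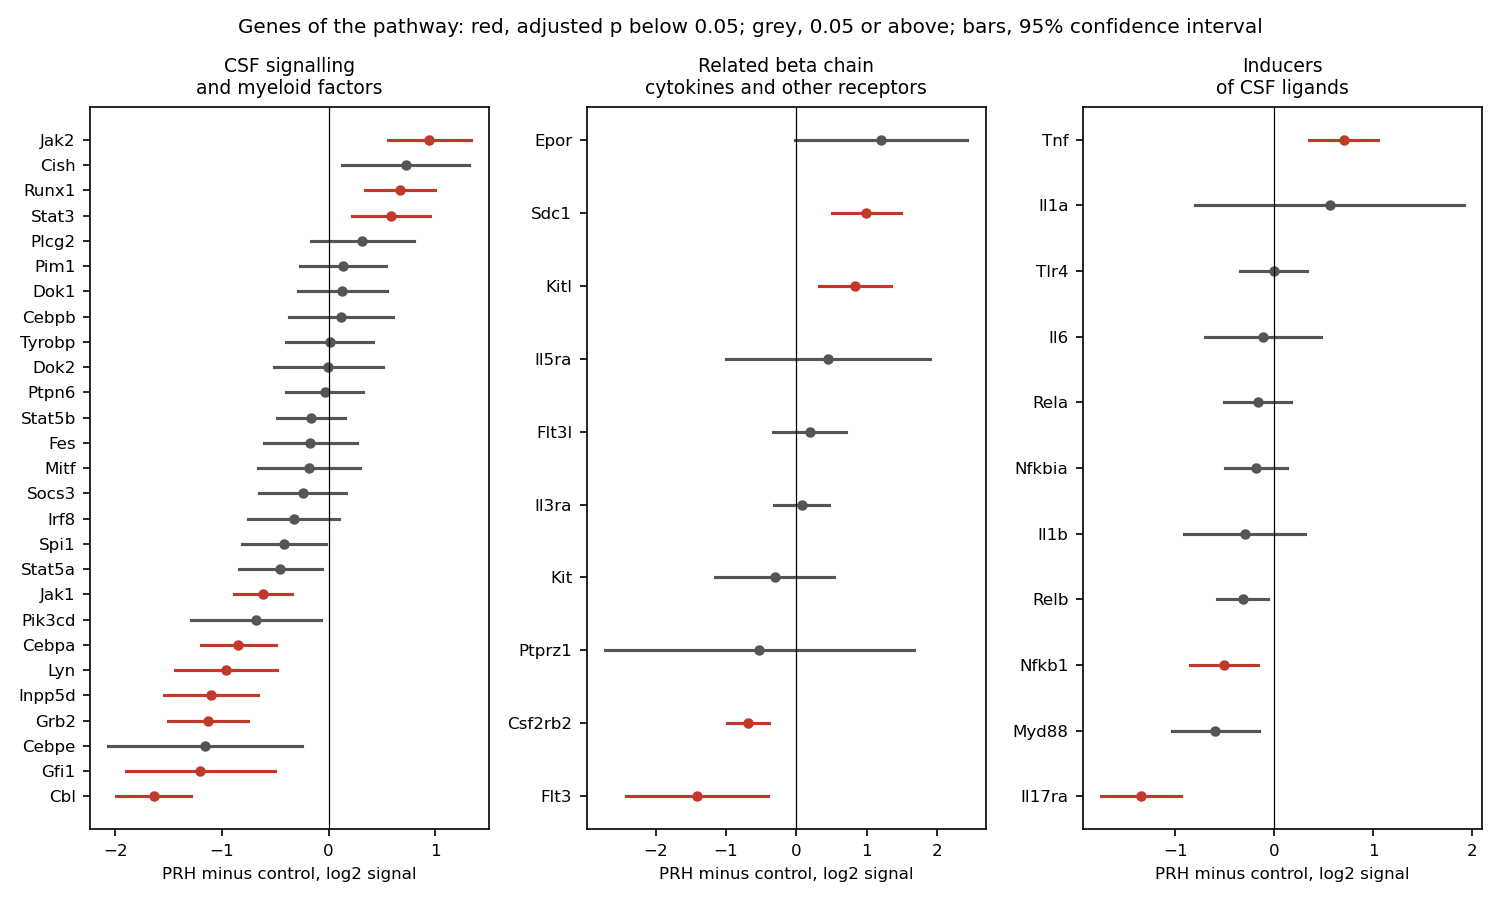
Difference between PRH-labelled and control tumours (log2 signal, horizontal axis, above 0 meaning higher in PRH-labelled tumours) with 95% confidence intervals for 27, 10 and 11 tested genes of 3 lists, 4 samples a group. Of the genes drawn from the first list 7 pass below 0 and 3 above it.

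The named genes whose profile over the 8 arrays lay closest to each member were found by the root mean square distance between mean-centred scaled log2 signals. Csf3r lay closest to Mtif2 (0.0689) and Taf7l (0.0964), distances small beside its own root mean square deviation of 0.566. Csf2 lay closest to Nos2, inducible nitric oxide synthase, at 0.166 beside a deviation of 0.548, and next to Plekhg6 at 0.240. Csf1 lay closest to Trmt10a (0.122) and Cd300ld (0.123), beside a deviation of 0.483, and Csf3 to Calr4 (0.111) and Clba1 (0.148), beside 0.434. Csf1r lay closest to Cyth4 (0.0567) and Gramd1b, Csf2rb to Nfam1 (0.0813) and Stk10, Csf2ra to Dis3l (0.0648) and Wars, and Il34 to Nenf (0.0744) and Mcoln1. Each member and gene was read by its brightest probe, 16377 genes were searched over 8 arrays, and the distances are given as a description.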

How the data were processed

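Per the file headers, the deposited intensities come from 1-colour Agilent Feature Extraction 10.7.3.1 on a mouse design placed on mm9. Version 9.1 stands in the submitters' processing notes. Its processed signal is an intensity after background correction, per the file headers. The authors also deposited a table of normalized linear intensity, with medians of 123.4 to 125.1, whose background correction, offset and scaling are not given in the sources used here. No spot was saturated.

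Signals were taken as log2, minus the array's 75th percentile over the spots of non-control probes. Spots marked as outliers were left out where others of the probe remained, and spots were averaged. Probes well above background on at least 4 of 8 arrays (39463) were tested with limma 3.58.1 in R 4.3.3 (group alone, Benjamini-Hochberg, threshold 0.05), which was also tested on simulated data. Probes were named by RefSeq accession through a GRCm38.p6 gene table (26582 matched). Named were all members, Hhex, the genes of each pathway list that passed (the 3 with the smallest p where none did) and the 2 nearest profiles a member. Marker genes and pathway genes named without passing were chosen after their values were seen. The lists' counts include 2 genes that are not reported here by name. Members and lists were chosen with earlier results of these data known. The files hold no mean signal, so normexp used the median spot and background signals with an offset of 50. Precision is limited by having 4 arrays in each group. Deviations from group means of same-numbered arrays correlated at 0.200, 0.422, 0.651 and 0.257 for numbers 1, 2, 3 and 5. These correlations come from the same data as the tests. The mouse numbers were taken as pairs in the replicate block and in the exact tests with pairs kept. The main limma fit was unpaired, so its adjusted p-values do not take the pairs into account.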

Additional observations from a re-analysis of the deposited data

Results flagged for a closer look

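Csf3 in control sample 1 stood apart from the other control samples. Its scaled log2 signal was -0.84, while the other 3 control samples lay between 0.18 and 0.34, and this gap took 0.858 of the group's range, above Dixon's 95% critical value for 4 samples. Chance marks about 5% of groups in this way, and 26 groups of 4 were looked at. The 4 PRH-labelled samples lay between -0.65 and 0.35. Without control 1 the difference of Csf3 was -0.39 and still did not pass (limma adjusted p = 0.256).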

How the results depend on the processing

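Leaving out 1 array moved the count of member probes called to between 1 and 4, of pathway genes to between 13 and 22 and of all probes to between 6591 and 13355, against 3, 19 and 10327 with all arrays, and the difference of the 75th percentile to between -401.9 and -308.6. Calls were 1 of 13 without PRH-labelled 2, 3 or 5 or control 2 or 3, and all probes called were 6664 without PRH-labelled 1, 6865 without PRH-labelled 5, 6707 without control 2 and 6591 without control 5. The count of member probes was 6 after median centring (0 higher), 7 without scaling (0 higher), and 1 of 8 with the brightest probe for each gene. Spike-in centring, on 7 probes, gave 0 member probes and 0 pathway genes with limma (3 and 12 at an unadjusted p under 0.05) and 3 of all probes, and Hhex stood at -1.22 there (adjusted p = 0.139). The cause was not tested. Of the calls over all probes, 61.5% were higher with the 75th percentile, 24.0% with arrays centred on their median, 41.8% with quantiles made equal, 39.0% with normexp, 40.4% in the authors' table, 14.6% without scaling, 55.5% with probes above background on all 8 arrays and 72.1% with the replicate block. With the mouse number as a replicate block, 3 of 13 member probes, 17 pathway genes and 13560 probes were called, and no member's call changed. Keeping the pairs in the exact tests, an alternative chosen after seeing the data, raised each p of 0.0286 to 0.125.

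Signs turned for Il34 (-0.26 after median centring, -0.39 without scaling), Csf2 (-0.11 and -0.24) and Csf2rb probe 2 (-0.10 and -0.22). Csf1r probe 1, at 0.00, stood at -0.46 with arrays centred on their median, -0.057 with quantiles made equal, -0.094 with normexp, -0.080 in the authors' table, -0.12 with spike-in centring, -0.59 without scaling and -0.10 to 0.12 without 1 array. Csf3 lay between -0.39 and 0.059 without 1 array. The log2 ratio of Csf1r probe 2 over probe 3 lay between -0.30 and 0.17 (0.018 without PRH-labelled 2), and that of Csf2ra over Csf2rb probe 1 between -0.28 and 0.014. Alternatives for these ratios were chosen after seeing the data.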
